A study of Mus musculus with 12 samples.

Results

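The immediate early genes Fos, Fosb, Jun, Junb, Egr1, Egr3, Atf3, Nr4a1, Ier2 and Dusp1 were described in the aorta of ApoE-/- mice. They were chosen by name, and all 10 were found among the 25284 named genes of the count table. RNA sequencing of thoracic aorta was done on 12 male mice on a C57BL/6 background that lack apolipoprotein E, a protein through which lipoproteins are cleared from blood. From 10 weeks of age until the end at 18 weeks, all 12 mice ate a diet rich in fat and cholesterol. From osmotic minipumps under the skin, 6 mice (A1 to A6) received AZ6983, an agonist of the α7 nicotinic acetylcholine receptor (α7nAChR), at a daily 50 µmol per kg over 8 weeks, and 6 control mice (C1 to C6) received vehicle alone. ApoE-/- mice develop atherosclerosis without any treatment, so the control aortas are those of diseased mice and no healthy aorta is among the samples.

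Immediate early genes are transcribed within minutes of a stimulus, without new protein synthesis, because the factors that switch them on are already present in the cell. Growth factors, calcium, mechanical stretch, wounding and the handling of tissue all raise them, through kinases that activate serum response factor with its Elk partners and the cyclic AMP response element binding protein CREB. Most of their products are transcription factors that act on later genes, and their mRNA is short-lived, so the level in a tissue depends on the moment at which it was frozen. The interval between death and freezing of each aorta is not given in the sources used here, so the levels could not be set against it.

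The promoters of Fos, Fosb, Nr4a1 and Dusp1 are printed here because Fos and Nr4a1 varied most between mice, Fosb had the largest group difference of the 10 genes, and Dusp1 holds a whole cyclic AMP response element. They are the 250 bases before the RefSeq start of each gene on build GRCm38.p6, read 5′ to 3′ on the strand of the gene, with motifs in capitals. Fos lies on the plus strand at chr12:85473640-85473889, Fosb on the minus strand at chr7:19310046-19310295, Nr4a1 on the plus strand at chr15:101266596-101266845 and Dusp1 on the minus strand at chr17:26508473-26508722.
Fos: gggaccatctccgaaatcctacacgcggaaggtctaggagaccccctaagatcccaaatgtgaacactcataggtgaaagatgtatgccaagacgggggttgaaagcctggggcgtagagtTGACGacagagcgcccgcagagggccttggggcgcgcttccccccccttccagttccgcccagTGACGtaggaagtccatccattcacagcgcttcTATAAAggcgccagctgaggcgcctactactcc
Fosb: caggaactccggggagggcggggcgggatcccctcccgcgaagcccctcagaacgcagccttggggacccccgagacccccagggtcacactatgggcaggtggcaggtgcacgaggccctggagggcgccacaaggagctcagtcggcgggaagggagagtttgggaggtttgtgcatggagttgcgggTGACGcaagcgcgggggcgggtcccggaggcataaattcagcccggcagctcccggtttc
Nr4a1: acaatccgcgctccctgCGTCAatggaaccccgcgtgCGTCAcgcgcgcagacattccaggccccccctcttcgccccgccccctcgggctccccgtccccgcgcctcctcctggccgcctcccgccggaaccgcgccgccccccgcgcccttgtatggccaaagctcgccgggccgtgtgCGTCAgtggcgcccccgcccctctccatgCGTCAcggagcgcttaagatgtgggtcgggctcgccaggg
Dusp1: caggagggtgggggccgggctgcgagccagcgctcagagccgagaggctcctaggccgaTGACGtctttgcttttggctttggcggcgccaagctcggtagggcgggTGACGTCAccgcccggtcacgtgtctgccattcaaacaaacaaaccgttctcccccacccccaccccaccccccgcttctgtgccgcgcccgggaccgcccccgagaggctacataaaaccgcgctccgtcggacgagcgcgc
Capitals mark TGACG, the core of the cyclic AMP response element (CGTCA where it lies on the other strand), the whole element TGACGTCA, which contains the core on both strands, and the TATA box TATAAA. RefSeq windows of 300 bases, from 250 before to 50 after the start, were found for 7 of the 10 genes, namely these 4 with Atf3, Jun and Junb. Searched on both strands, TGACG was in 6 of the 7 windows (all but Jun), against 20.8% of 32851 windows of all genes. In Fos it ended 125 and 62 bases before the start, and in Fosb 56 bases before it. Nr4a1 held it 4 times, and the whole element was in Dusp1 alone of the 7, against 1.79% of all windows. TATAAA was in Fos and Junb, against 13.6% of all windows. In Fos it ended 28 bases before the start, but in Junb it began at the RefSeq start itself. That RefSeq start lies upstream of the Junb start annotated by GENCODE (84978718, minus strand). The Junb box therefore lies before the GENCODE start. The AP-1 site TGANTCA was in 0 of the 7 windows (7.81% of all), and the CArG box, bound by serum response factor, in 0 of the 7 (1.63% of all). These are matches of letters in a short window and do not show that a factor was bound.

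Counts on genes were 23810036 to 35864666 per mouse. The 10 genes together held 0.0214% to 0.0768% of them, with control mouse C6 at 0.0768%, AZ6983 mouse A1 at 0.0638% and the third mouse, A2, at 0.0370%. C6 and A1 therefore stand apart for these genes, and results are given with and without them. The table's column for A1 carries 3 of the 4 digits of that mouse's number, which is a further reason for giving results without it. Levels are in CPM, a gene's counts per 1000000 counts on genes after TMM scaling, a correction for differences in RNA composition between libraries.

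Fos and its close relative Fosb encode partners that join with Jun proteins in the dimeric transcription factor AP-1. Fos (12:85473890-85477273, plus strand, GRCm38) was at 15.5, 28.6, 29.4, 26.2, 14.0 and 134 CPM in C1 to C6 and at 70.5, 25.4, 27.1, 22.5, 25.5 and 33.2 CPM in A1 to A6. C6 and A1 were far above every other mouse, and the 10 others lay between 14.0 and 33.2 CPM in both groups. Fosb (7:19302696-19310051, minus strand) was at 2.55, 2.61, 2.48, 2.38, 1.803 and 8.91 CPM in C1 to C6 and at 7.24, 6.26, 4.70, 4.50, 6.13 and 3.43 CPM in A1 to A6. C6 was again the highest mouse, but the other 5 controls all lay below the lowest AZ6983 mouse. Fosb rested on 52 to 262 counts per mouse, which gives a counting error of 9.71% at the median count.

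Jun and Junb encode the Jun side of AP-1, and Atf3 encodes a stress-induced factor of the same leucine zipper class that can pair with Jun proteins. Jun (4:95049034-95052222, minus strand) ranged over 52.7 to 129 CPM in the controls (median 66.3) and 60.9 to 137 in the AZ6983 mice (median 73.9), and A1 was the highest mouse with C6 next. Junb (8:84974484-84978718, minus strand) ranged over 23.5 to 62.7 CPM in the controls (median 29.4) and 22.3 to 42.4 in the AZ6983 mice (median 28.0). Atf3 (1:191170296-191218039, minus strand) ranged over 17.5 to 55.1 CPM in the controls (median 22.6) and 15.6 to 54.2 in the AZ6983 mice (median 26.4). The groups overlapped for all 3 genes, and for Junb and Atf3 the highest mouse was C6 and the next was A1. The antisense gene Junos lies over Jun, Prdx2 runs into Junb from the other strand and a small RNA gene lies within Atf3. The strand setting of the counting is not given in the sources used here, so reads of these partners may not be told apart.

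Egr1 and Egr3 encode zinc finger transcription factors, and Egr1 is a known early responder to injury and shear stress in the arterial wall. Egr1 (18:34859823-34864984, plus strand) ranged over 12.5 to 39.0 CPM in the controls (median 15.3) and 10.4 to 36.4 in the AZ6983 mice (median 17.4), with C6 and A1 the highest and third-ranked A2 at 24.2. Egr3 (14:70077203-70082614, plus strand) was near the lower limit of the measurement, with 7 to 24 counts per mouse and a counting error of 30.2% at the median count. It ranged over 0.241 to 0.748 CPM in the controls and 0.261 to 0.863 in the AZ6983 mice. It was the only one of the 10 genes for which C6 and A1 were not the leading pair, since A2 was the highest mouse, C6 the next and A1 at 0.520 CPM the fourth.

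Nr4a1 encodes an orphan nuclear receptor that is known in vascular cells and macrophages, Ier2 a small nuclear protein, and Dusp1 a phosphatase that switches off MAP kinases and so restrains the signal that induces it. Nr4a1 (15:101254269-101274795, plus strand) was at 10.9, 20.8, 27.3, 46.4, 12.6 and 99.3 CPM in C1 to C6 and at 87.5, 47.3, 22.7, 37.1, 64.4 and 33.0 CPM in A1 to A6. Unlike Fos, it also spread widely among the other 10 mice, from 10.9 in C1 to 64.4 in A5. Ier2 (8:84661331-84662852, minus strand) was the least variable, at 12.1 to 27.9 CPM in the controls (median 16.2) and 11.99 to 20.1 in the AZ6983 mice (median 13.3). Dusp1 (17:26505590-26562128, minus strand) ranged over 47.2 to 174 CPM in the controls (median 71.4) and 64.6 to 161 in the AZ6983 mice (median 84.2). The annotated span of Dusp1 overlaps Ergic1 and smaller genes.

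**Figure D1:**
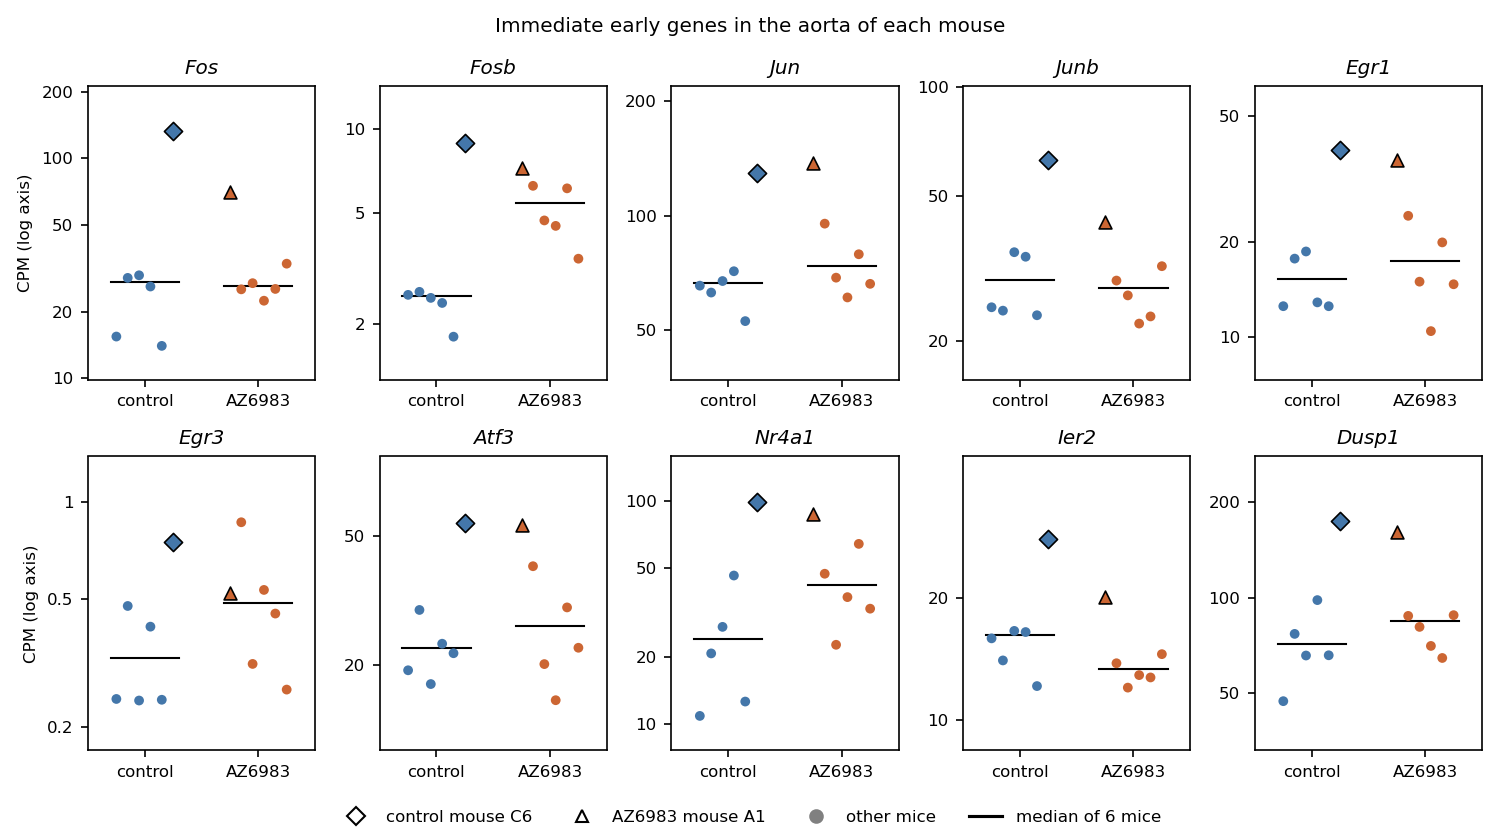
Level of each of the 10 genes in CPM (log axis) in the aorta of 6 control and 6 AZ6983 mice. Each point is 1 mouse, the line is the median of 6, the diamond is C6 and the triangle is A1. C6 is the highest control for all 10 genes, and the Fosb points of the other 5 controls lie below those of all 6 AZ6983 mice.

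Per kilobase of exon, the order of the genes by their median over 12 mice was Dusp1 (23.8 CPM per kb), Jun (21.3), Junb (12.2), Fos (11.3), Atf3 (10.7), Nr4a1 (9.99), Ier2 (9.36), Egr1 (3.64), Fosb (0.635) and Egr3 (0.0974). Neighbours in this order were compared within mice with an exact sign-flip permutation test, two-sided, with Benjamini-Hochberg adjustment over 9 comparisons. Jun exceeded Junb, Ier2 exceeded Egr1, Egr1 exceeded Fosb and Fosb exceeded Egr3 in 12 of 12 mice each (adjusted exact p = 0.0011). Dusp1 and Jun did not differ beyond their spread (adjusted exact p = 0.505), nor did any neighbours among Junb, Fos, Atf3, Nr4a1 and Ier2 (adjusted exact p = 0.243 to 0.894). The order was taken from these same mice, so the p-values describe how steadily it held between mice and are not an independent test of it. Lengths are those of all annotated exons joined, so a gene with a long annotated form is placed lower. The p-values do not include the error of these lengths.

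Mice of the same group differed more for these genes than for most others. The within-group SD of log2 CPM had a median of 0.594 over the 10 genes and of 0.217 over the 15857 genes tested, and all 10 genes were above the latter value. It was largest for Nr4a1 (0.980, percentile 96.4 of all genes) and Fos (0.927, percentile 96.0) and smallest for Ier2 (0.343, percentile 72.8). Of the 10 genes, 5 were in the most variable 10% of all genes. Variation in counts falls with abundance, so the biological coefficient of variation from edgeR, the spread between mice beyond counting error, was set beside the trend of all genes at the same level. Nr4a1 was at 59.7% against a trend of 16.1%, Fos at 61.3% against 16.8%, Dusp1 at 36.2% against 14.6% and Atf3 at 40.3% against 18.3%. Egr3 was below its trend (37.3% against 41.4%), and Fosb (44.8% against 37.5%) and Ier2 (23.8% against 21.6%) were a little above theirs. Most genes lay further below the trend than Egr3. By the ratio to the trend, Egr3 was at percentile 74.5 of all genes, Ier2 at 84.8 and Fosb at 87.7.

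**Figure D2:**
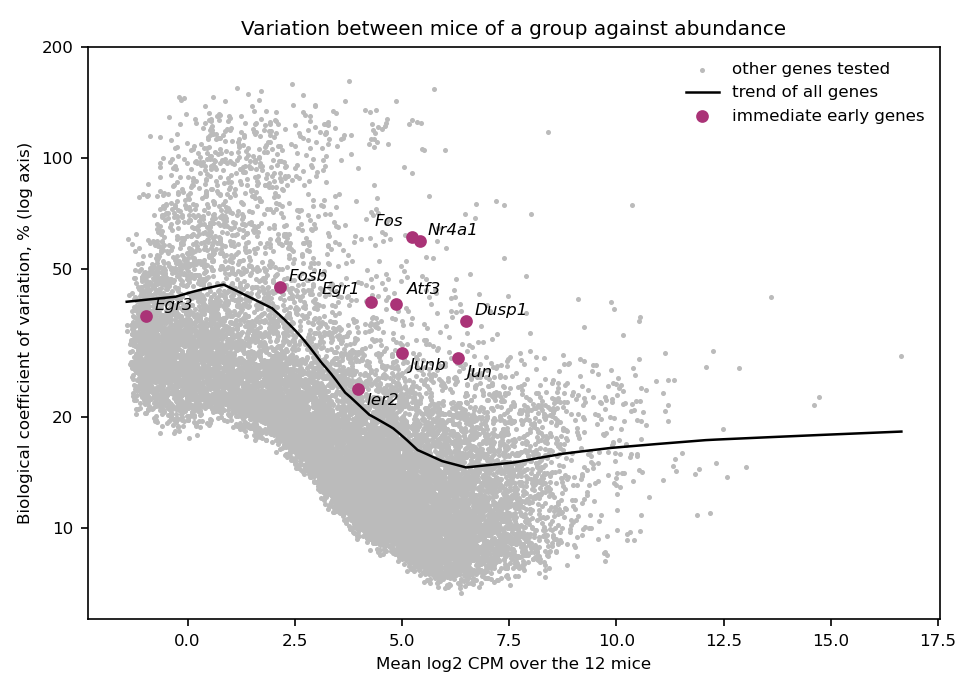
Biological coefficient of variation between mice of a group (%, log axis) against mean log2 CPM over 12 mice, 1 point per gene. The black line is the trend of all genes, and the 10 immediate early genes are named. Fos (61.3%) and Nr4a1 (59.7%) lie furthest above the line, and Egr3 (37.3%) lies below it.

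Much of this spread came from C6 and A1. C6 was the highest control for 10 of 10 genes, as it was for 24.4% of all genes, and A1 was the highest AZ6983 mouse for 9 of 10, against 19.6% of all genes. They were the 2 highest of all 12 mice for 9 of 10 genes, against 4.66% of all genes. C6 exceeded the median of the other 5 controls 5.11-fold for Fos, 4.78-fold for Nr4a1, 3.59-fold for Fosb and 1.76-fold for Ier2, the least. A1 exceeded the median of the other 5 AZ6983 mice 2.77-fold for Fos, 2.44-fold for Egr1, 2.39-fold for Atf3 and 2.36-fold for Nr4a1, but 1.16-fold for Egr3. At the other end, C5 was the lowest mouse for 3 genes, against 5.11% of all genes, and A4 for 3, against 6.71%. C1 was the lowest for 2, against 13.1% of all genes. With C6 left out, the median SD of the 10 genes was 0.451. With both C6 and A1 left out it was 0.346, against 0.206 for all genes, and 9 of the 10 genes remained above the median of all genes. Only Nr4a1 was then still in the most variable 10% (percentile 93.3), and Ier2 was below the median gene (percentile 34.6).

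The 10 genes rose and fell together over the 12 mice, and less closely without C6 and A1. Pearson's r of log2 CPM was above 0 for 45 of 45 pairs of genes, with a median of 0.747, and 39 pairs passed 5% FDR in a permutation test with 100000 resamples. By Spearman's rho, which reads ranks alone, 10 pairs passed. The closest pairs were Junb with Ier2 (r = 0.929, permutation p = 6e-05, rho = 0.811, permutation p = 0.00208) and Jun with Egr1 (r = 0.926, permutation p = 0.00014, rho = 0.853, permutation p = 0.00073). Without C6, 14 pairs passed, and without A1, 30. Without both, 0 of 45 passed, with a median r of 0.409, a range of -0.41 to 0.77 and 39 pairs above 0. For Junb with Ier2, r was then 0.69, and for Jun with Egr1 0.75. For Fosb with Junb it went from 0.49 to -0.18. C6 and A1 were picked as the highest mice for these genes. Leaving them out narrows the range and leaves 10 mice, so a lower r and fewer passing pairs follow in part from the choice. Within the 6 controls the median r was 0.872 and 6 pairs passed the exact permutation test at 5% FDR, and within the 6 AZ6983 mice the median was 0.751 and 4 pairs passed. The share of pairs of other genes that would pass was not computed, so these counts cannot be set beside it.

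The tissue and library measures were examined for the same mice. Smooth muscle markers (Myh11, Acta2, Tagln, Cnn1 and Smtn) summed to 13098 to 17511 CPM in the controls and 10135 to 17528 in the AZ6983 mice, as fits an aorta. A1 and C6 had the 2 highest sums, but they were the 2 highest mice for only 1 of the 5 genes. Heat shock genes (Hspa1a, Hspa1b, Hsph1, Dnajb1 and Hspb1), which are themselves induced by stress, summed to 387 CPM in C6 and 374 in A1, the 2 lowest mice, against 445 to 1153 in the 10 others. Hsph1 (88.1 and 118 CPM) and Hspb1 (120 and 129 CPM) were lowest in C6 and A1, whereas Hspa1a (58.6 and 41.2, the median of 12 mice at 57.0) and Dnajb1 (46.6 and 38.9, the median at 45.8) were not. Nor was Hspa1b (73.7 and 46.8, the median at 82.5), which was lower in C1, C3 and C4 (38.4, 42.0 and 41.4). Genes induced by glucocorticoid (Fkbp5, Tsc22d3, Zbtb16, Per1 and Sgk1) summed to 256 CPM in C6 and 329 in A1, again the 2 lowest, against 359 to 612 in the others, although Per1 and Sgk1 were nearer to their medians than the other 3. Of the genes of both lists, A1 was below the median of 12 mice for 10 of 10 and C6 for 8. These counts were not set beside the share of all genes. The sums of cardiac muscle markers were also lowest in C6 and A1, at 9.73 and 10.4 CPM against 12.1 to 192. They were the 2 lowest mice for only 1 of these 5 genes. Endothelial (945 CPM), white fat (747 CPM) and neutrophil (11.9 CPM) markers were lowest in C6 but not in A1. Thymus and T cell markers summed to 800 CPM in A4 and 0.446 to 30.0 in all others. Fibroblast markers (Dcn, Lum, Pdgfra, Col1a1 and Pi16) were high in both, at 3418 CPM in C6 and 3382 in A1, below A2 at 3767 and above the 9 others at 2319 to 3123. Among the other 6 lists, C6 ranked 2, 8, 11, 5, 9 and 2 of 12 mice and A1 ranked 6, 9, 6, 3, 1 and 5 for macrophage, brown fat, skeletal muscle, nerve, erythroid and cartilage markers in that order. In tissue RNA, a change in the number of cells of a type and a change in RNA per cell cannot be told apart. Mitochondrial transcripts were low in both, at 11.4% of counts in C6 and 12.4% in A1, with only A3 lower (9.96%) and the others up to 24.0%. The share of counts on the 10 most abundant genes was likewise low in both, at 16.9% and 18.2%, with only A3 lower (16.0%) and the others up to 30.2%. The column numbers of the 2 libraries, whose meaning is not given, were 3 and 11, with controls at 3 to 7 and 12. The part of these measures in the levels of the immediate early genes was not tested.

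Whether AZ6983 changed the aortic transcriptome was the question of the study, and none of the 10 genes passed the test of AZ6983 against control. In edgeR's quasi-likelihood test over all 15857 genes, 0 of the 10 passed 10% FDR and 0 had an unadjusted p under 0.05. Over all genes 0 passed 10% FDR (0.0%) and 1616 (10.2%) had an unadjusted p under 0.05, of which 1170 were higher and 446 lower in AZ6983 mice. DESeq2 called 92 of all genes and 0 of the 10. The log2 fold changes of the 10 genes, AZ6983 against control, were from -0.28 to 0.64 with 7 above 0, and their median was 0.11 against 0.01 for all genes. Fosb had the largest, at 0.64 (SE 0.365, edgeR adjusted p = 0.547). The mean log2 CPM of Fosb was higher by 0.81 in the AZ6983 mice (exact permutation p = 0.0606). Nr4a1 was at 0.43 (SE 0.512, edgeR adjusted p = 0.773) and Egr3 at 0.32 (SE 0.357, edgeR adjusted p = 0.753). Fos was at -0.28 (SE 0.528, edgeR adjusted p = 0.867), although its mean log2 CPM was higher by 0.09 in the AZ6983 mice, since the fold change is fitted to counts and C6 holds much of the controls' total. Ier2 was at -0.26 (SE 0.188) and Junb at -0.22 (SE 0.244), and Jun, Atf3, Egr1 and Dusp1 were between 0.07 and 0.18. The interval of 2 SE on either side reached from -1.33 to 0.78 for Fos and from -0.09 to 1.37 for Fosb. The AZ6983 libraries had more reads on no gene, 12.8% ± 1.36 (SD, n = 6) against 10.1% ± 1.55 (SD, n = 6) in controls (exact permutation p = 0.0108, adjusted p = 0.0758 over 7 library measures), and with this share as a covariate Fosb was at 0.60 (SE 0.537). Of the 15 marker lists, 3 had the smallest p between groups, each with an adjusted exact permutation p of 0.26 over the 15. Neutrophil markers summed to 11.9 to 45.7 CPM in controls and 27.7 to 221 in AZ6983 mice (exact permutation p = 0.0238), white fat markers to 747 to 1744 and 1243 to 1815 CPM (exact permutation p = 0.0498), and endothelial markers to 945 to 1122 and 1039 to 1248 CPM (exact permutation p = 0.0519). The part of these measures in the fold changes was not tested.

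C6 was the highest control for each of the 10 genes, so leaving it out lowers each control mean. By this choice all 10 fold changes were higher without C6, and those of Fos and Junb turned positive. Fosb in the 5 remaining controls was at 2.36 ± 0.325 CPM (SD, n = 5), against 5.38 ± 1.40 (SD, n = 6) with AZ6983, and the groups did not overlap, since the highest of the 5 controls was at 2.61 and the lowest AZ6983 mouse at 3.43. All AZ6983 mice lay above these 5 controls for 0.87% of all genes, and for 1 of the 10, Fosb. The log2 fold change of Fosb was then 1.18 (SE 0.197). Its mean log2 CPM was higher by 1.13 in the AZ6983 mice, with an exact permutation p of 0.00433 where the smallest possible is 0.00216. Fosb had an adjusted p of 0.158 in edgeR, which called 1 gene of 15979 without C6 (0.00626%). In DESeq2, which called 233 of 16506 (1.41%), its adjusted p was 6.97e-05. C6 was left out because its values for these genes were seen to be high. Leaving it out favours a difference for every gene higher in AZ6983 mice, so the p-values without C6 are not valid tests. With C6 the exact permutation p of Fosb was 0.0606. With both C6 and A1 left out, Fosb was at 1.07 (SE 0.189, edgeR adjusted p = 0.167). Nr4a1 without C6 was at 1.04 (SE 0.417, edgeR adjusted p = 0.369). Its mean log2 CPM was then higher by 1.10 in the AZ6983 mice (exact permutation p = 0.0455), and 3 of the 6 AZ6983 mice lay above all 5 controls. Fos went from -0.28 to 0.58 without C6, to -0.63 without A1 and to 0.23 without both. Ier2 was below 0 in each of these fits (-0.07, -0.38 and -0.19 in that order).

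**Figure D3:**
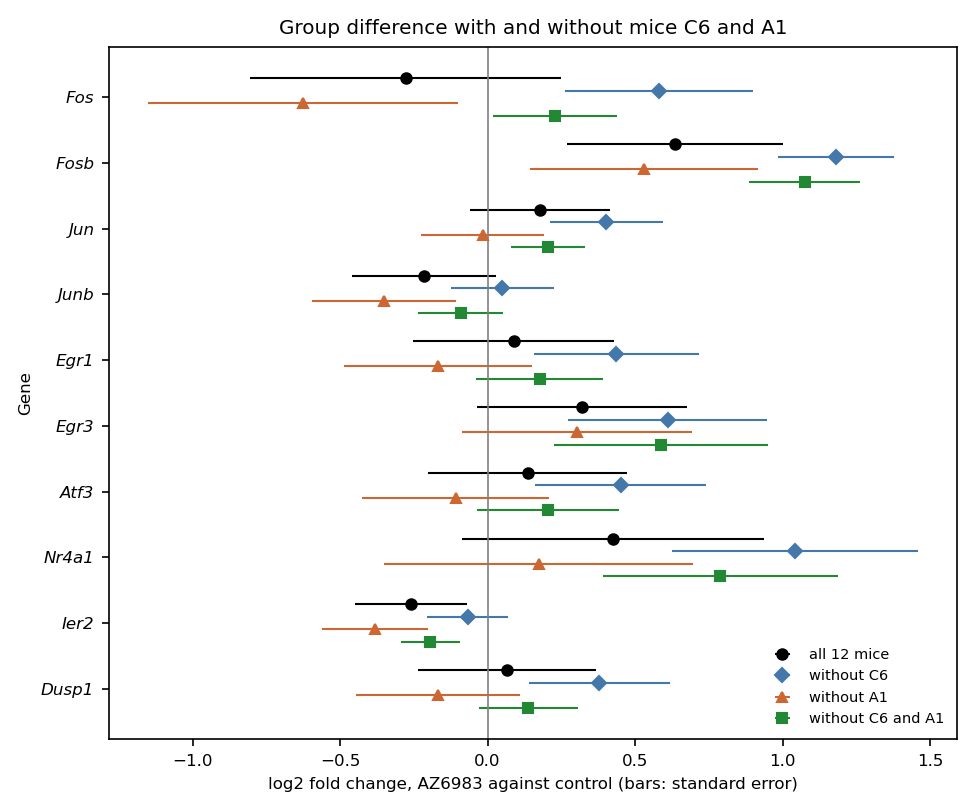
Log2 fold change of each gene, AZ6983 against control, from edgeR with all 12 mice, without C6, without A1 and without both. Bars are the standard error. Fosb is above 0 in all 4 fits (0.64, 1.18, 0.53 and 1.07), and Fos changes sign with the mouse left out.

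Other genes of the early response were described from a list of 58, of which 55 were tested. Of these, 0 passed 10% FDR, 5 were higher and 2 lower in AZ6983 mice at an unadjusted p under 0.05 in edgeR (12.7% together, near the 10.2% of all genes), and the median log2 fold change was 0.14 against 0.01 for all genes. Npas4, an activity-induced transcription factor, had the smallest p, at a log2 fold change of 1.05 (SE 0.322, edgeR adjusted p = 0.447). It was at 0.558 to 1.30 CPM in controls and 0.743 to 3.34 in AZ6983 mice, from 16 to 93 counts. The next were Klf10 (-0.23), Nfkbia (0.33), Errfi1 (0.32) and Ier5l (-0.50), with edgeR adjusted p = 0.45 to 0.465. Among relatives of the 10 genes, Jund and Fosl2 of AP-1 were at 0.05 (SE 0.095) and 0.25 (SE 0.159), Egr2 at 0.00 (SE 0.251), and the nuclear receptors Nr4a2 and Nr4a3 at 0.49 (SE 0.277) and 0.68 (SE 0.336). Fosl1 of AP-1 was under the filter on low counts, with 1 to 9 counts per mouse.

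C6 and A1 were the 2 highest mice for 6 of the 55 (10.9%), against 9 of the 10. They were Cyr61, a secreted matrix protein (241 and 209 CPM, the third mouse at 135), Btg2 (157 and 135, the third at 101) and Zfp36 (36.8 and 35.1, the third at 29.2), which both promote mRNA decay, and Jund, Ppp1r15a and Ier3. The Nr4a family was split. Nr4a3 was lowest in C6 (7.45 CPM), low in A1 (12.7) and highest in A5 (46.2) and A2 (35.5), whereas Nr4a1 was highest in C6 and A1. Nr4a2 was highest in A5 too (24.6 CPM), with A1 next at 13.0. The median within-group SD of the 55 was 0.301, against 0.594 for the 10 and 0.217 for all genes, and 6 of the 55 were in the most variable 10%. Of 21 genes upstream of the early response (serum response factor and its partners, CREB and its coactivators, MAP kinases and RSK kinases), 21 were tested, 0 passed 10% FDR, 5 were higher (23.8%, against 7.38% of all genes) and 0 lower (2.81% of all genes) at an unadjusted p under 0.05, and their median log2 fold change was 0.14. Elk4, a partner of serum response factor, was at 0.20 (SE 0.074, edgeR adjusted p = 0.45) and the coactivator Ep300 at 0.37 (SE 0.139, edgeR adjusted p = 0.45). The other higher genes were Rps6ka3, Crtc2 and Crebbp. A5 and A2 were the 2 highest mice for Elk4, Ep300, Crtc2 and Crebbp, and A5 and A6 for Rps6ka3. These 5 genes share their highest mice, so they are not independent.

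**Figure D4:**
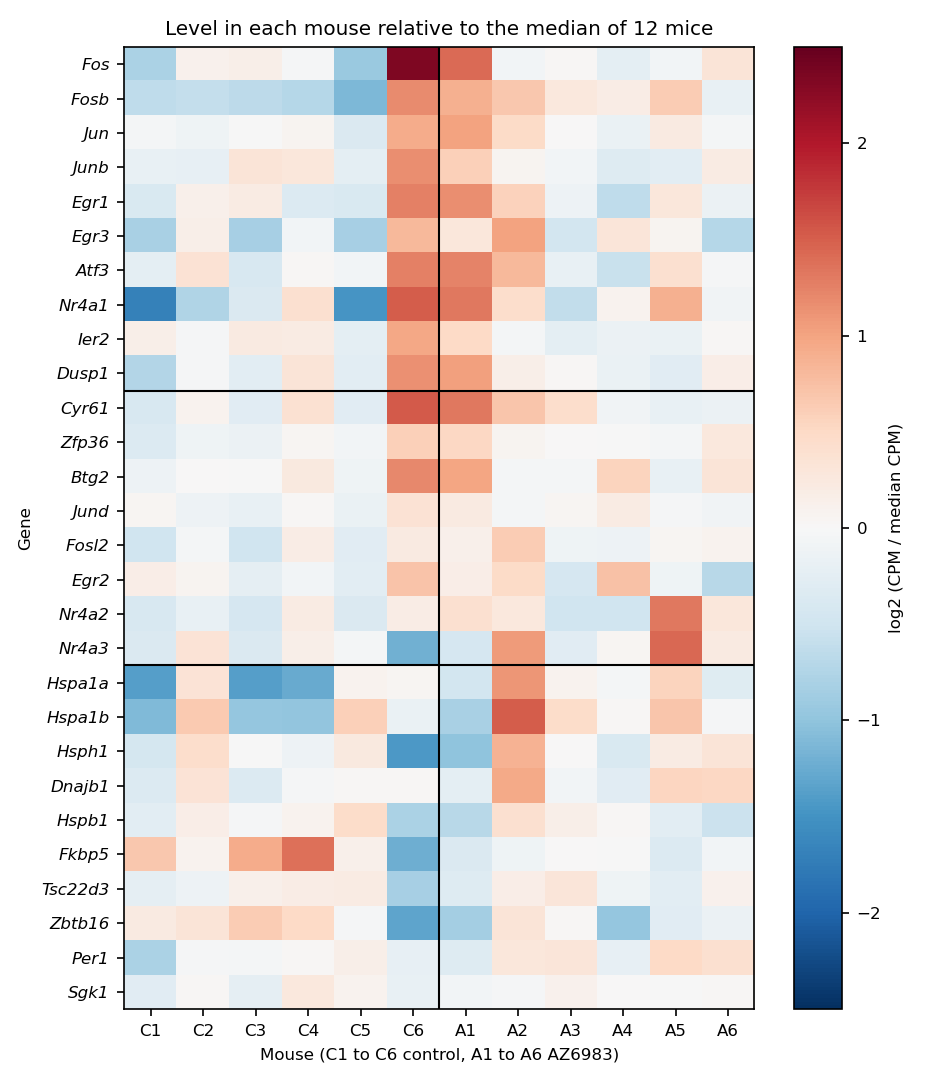
Level of the 10 immediate early genes, 8 other early response genes, and, below, 5 heat shock and 5 glucocorticoid-induced genes in each mouse, as log2 of CPM over the median of 12 mice. Red is above and blue below that median. The C6 and A1 columns are red for the 10 genes. At the bottom they are blue for Hsph1, Hspb1 and Zbtb16 and near white for Sgk1, with Hspa1a and Dnajb1 near white in C6. Nr4a3 is blue in C6 (-1.19) and red in A5 (1.44).

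Genes whose log2 CPM over the 12 mice was most like the mean of the 10 included Igsf3 (Pearson's r = 0.938), Pdgfrb (0.922), Cyr61 (0.918), Cdon (0.913), Emc1 (0.911), Ttc39b (0.906), Adamts5 (0.897), Pced1b (0.897) and Nynrin (0.892). Pdgfrb, a receptor of smooth muscle cells and pericytes, was at 255 CPM in C6 and 232 in A1, the third mouse at 231 and the lowest at 161. Cyr61 was the only one of these 9 on the list of early response genes. Without C6 and A1, r of these 9 ranged from 0.53 (Pced1b) to 0.83 (Igsf3). These values describe likeness over mice that share 2 high libraries.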

How the data were processed

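RNA was measured in the thoracic aorta of 6 control and 6 AZ6983 mice. The authors removed ribosomal RNA, made stranded libraries and sequenced both ends of each fragment. The submitters' processing notes name CASAVA 1.8.2, STAR 2.5.2b, HTSeq 0.6.1p1 and build mm10. The authors deposited raw counts per gene symbol, of which 3 rows name no gene and were left out. RNA was not selected by poly(A) tail, so unspliced transcripts can contribute. Groups came from the sample labels. The 66 pairs of libraries differed beyond sampling noise (chi-square per degree of freedom 12.02 to 226).

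The members and gene lists were chosen with earlier results of these data known. Named were all 10 members, the early response genes past 10% FDR, the 5 with the smallest p and relatives of the members, the 2 upstream genes with the smallest p, and the 10 genes most like the members' mean, of which 1 is not reported here. Other genes named, and mice C6 and A1, were singled out after their values were seen.

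Counts were tested with edgeR 4.0.16 (TMM, filterByExpr, quasi-likelihood, no covariate) with Benjamini-Hochberg adjustment. SDs and correlations used log2 CPM with a prior count of 2. DESeq2 1.42.0, limma-voom with sample weights (limma 3.58.1), other scalings, no filter and each mouse left out were alternatives. Single values were compared with two-sided exact permutation tests over 924 assignments of mice, or 462 without C6. The comparison of neighbours in order of level was added after seeing the data. Positions, lengths and overlaps came from GENCODE M21 by symbol, and promoters from RefSeq. In a simulation in which 200 of 15857 genes differed between 6 and 6 mice, edgeR recovered 166 with 21 false calls and DESeq2 170 with 52. The simulated spread was the trend of all genes, and no mouse was made to stand apart. Recovery was therefore not measured for genes as variable as Fos or Nr4a1.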

Additional observations from a re-analysis of the deposited data

Results flagged for a closer look

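For the 10 genes and the library measures, each group of 6 mice was examined for a mouse whose gap to the nearest other was large for the range of the group. Of 34 such groups, 9 held one, and in each it was C6 or A1. C6 stood above the other controls for Fos (log2 CPM 7.06, the next at 4.88), Fosb (3.17, the next at 1.42), Jun (7.01, the next at 6.16) and Egr1 (5.29, the next at 4.22), and for the share of counts on the 10 genes (0.0768%, the next at 0.0332%). A1 stood above the other AZ6983 mice for Fos (log2 CPM 6.14, the next at 5.06), Ier2 (4.33, the next at 3.87) and Dusp1 (7.33, the next at 6.46), and for the share of counts on the 10 genes (0.0638%, the next at 0.0370%). The 10 genes vary together and the share of counts on them is their sum, so these are not independent. The 9 groups were not tested against chance.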

How the results depend on the processing

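No paired analysis was possible because the labels give mouse numbers that are not shared between groups. The count of all genes past 10% FDR, 0 in edgeR, was 92 in DESeq2, 4 in limma-voom with sample weights, 2 with both C6 and A1 left out, 233 in DESeq2 with C6 left out, and 0 to 27 with each mouse left out in turn (27 without A5, 1 without C6, 1 without A1). The count among the 10 genes was 1 in DESeq2 with C6 left out and 0 in every other fit. Leaving out both mice, and DESeq2 with C6 left out, were chosen after seeing the data. Signs turned for Fos (0.42 in limma-voom, 0.23 with both mice left out, 0.56 in DESeq2 with C6 left out, -0.63 to 0.58 with each mouse left out), for Junb (0.029 in limma-voom, 0.032 in DESeq2 with C6 left out, -0.35 to 0.050 with each mouse left out), and, in the fit that adds the percentage of reads outside genes, for Egr3 (-0.17) and Atf3 (-0.016). With each mouse left out in turn, Jun was at -0.017 to 0.40, Egr1 at -0.17 to 0.44, Atf3 at -0.11 to 0.45 and Dusp1 at -0.17 to 0.38, and the lowest value was the fit without A1 and the highest the fit without C6. The cause was not tested. Fosb, Nr4a1 and Ier2 kept their sign in every fit. The lowest adjusted p over these fits was 6.97e-05 for Fosb and 0.295 to 0.537 for the other 9. The median SD of 0.594 was 0.346 with both mice left out and 0.451 to 0.624 with each left out. The 39 pairs past 5% FDR were 10 by Spearman's rho, 0 with both mice left out and 14 to 40 with each left out (14 without C6). Depth limits Egr3 (7 to 24 counts).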

Other observations

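Chosen after its values were seen, Il6, an early response cytokine that the filter on low counts removed, was at 2.62 CPM in C6, 0.863 in A2 and 0.037 to 0.521 in the other 10 mice, from 1 to 77 counts. Ptgs2, the inducible cyclooxygenase, was likewise highest in C6 (31.1 CPM) and A2 (29.0), with A1 at 17.5 CPM and the lowest mouse, A5, at 10.4. Its log2 fold change was -0.09 (SE 0.278, edgeR adjusted p = 0.923). Over the 55 early response genes tested, C6 was the highest mouse for 10 (18.2%, against 9.55% of all genes), C4 for 8 (14.5%, against 4.82%), A2 for 9 (16.4%, against 12.6%), A5 for 10 (18.2%, against 18.5%) and A1 for 4 (7.27%, against 6.00%). C1 was the lowest for 17 (30.9%, against 13.1% of all genes). These shares were not tested.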
